A study of Homo sapiens with 8 samples.

Results

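The genotype contrast of batch 1 set 2 RNA sequencing libraries labelled ATF3 knockout (KO-labelled below) against 2 wild-type libraries, 4 of the 8 libraries of the study. They were chosen by their genotype and batch labels alone. All came from hTERT-RPE1, a line of human retinal pigment epithelial origin immortalised with telomerase. The KO-labelled libraries were 1 from complete medium and 1 taken 8 h after transfer to medium lacking serine and glycine, and the wild-type libraries were 1 from each of the same media. The series text places the 4 cultures in a single batch of treated cells, and the other 4 libraries repeat the design in an independent experiment, batch 2. How the ATF3 allele was made, and whether the KO-labelled cells were a single clone, is not given by the labels. Values below are FPKM (fragments normalised for transcript length and for the mapped fragments of the library) as deposited. Each pair of values gives complete medium and then serine/glycine-free medium, and each difference is KO-labelled minus wild type on the log2(FPKM + 1) scale.

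ATF3 is a transcription factor of the ATF/CREB family that cells induce under many stresses, among them shortage of amino acids. It binds the ATF/CRE and AP-1 sequence elements, alone or paired with JUN proteins, and can repress or activate the genes that carry them. When serine is lacking, ATF4 raises the enzymes of serine synthesis together with amino acid transporters, and ATF3 is among its targets. Retinal pigment epithelium supports the photoreceptors of the eye, and hTERT-RPE1 is widely used as a near-diploid model of human cell division and cell stress.

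Of 57884 listed genes, 16018 reached an FPKM of 1 in at least 2 of the 4 libraries and were tested, of which 12179 are protein-coding. FPKM sums ran from 2429660 to 2911680 per library, and small noncoding RNAs held 61.0% to 65.7% of them. Libraries correlated at r = 0.922 to 0.945 across genes, which are not independent replicates. Sequencing depth is unknown, since the tables hold no counts. Of 20 measured markers of retinal pigment epithelium, 10 were below 0.5 FPKM in all 4 libraries, with OTX2, TTR and RLBP1 at 0. RPE65, the visual cycle isomerase, stood at 0.463 and 0.212 FPKM in the KO-labelled libraries, against 0.316 and 0.102 FPKM in wild type. The pigment cell factor MITF was present, and the keratins KRT8 (−0.59) and KRT18 (−0.67) were lower in the KO-labelled libraries and passed the protein-coding fit described below. The 20 markers summed to 224 and 241 FPKM in the KO-labelled libraries, against 363 and 328 FPKM in wild type. Most of each sum was KRT8, at 149 and 156 FPKM against 249 and 213 FPKM, and KRT18, at 49.8 and 64.4 FPKM against 90.9 and 89.9 FPKM. These sums therefore say little about the other markers, of which MITF (0.21) and MERTK (0.35) were higher and SERPINF1 (−0.52) and RDH5 (−0.17) lower, none passing either fit. Of markers of other cells, 6 of 10 immune and 6 of 9 endothelial ones were below 0.5 FPKM in all 4 libraries, PTPRC and CDH5 among them. CD68 stood between 1.68 and 4.27 FPKM and ERG between 0.701 and 1.08 FPKM. So were 6 of 8 photoreceptor and 7 of 8 skeletal muscle markers, but only 1 of 10 neuronal and 5 of 20 epithelial ones. The neuronal marker NEFL stood between 17.1 and 28.8 FPKM, and the epithelial marker LAMB3 between 17.8 and 43.2 FPKM.

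ATF3 itself (ENSG00000162772, hg19 chromosome 1, 212738676 to 212794119, in a locus string shared by 2 listed genes) stood at 3.38 and 4.45 FPKM in the KO-labelled libraries, against 3.47 and 6.46 FPKM in wild type. Its mRNA was thus present in both KO-labelled libraries, and the difference of −0.24 ± 0.23 (SE, n = 2 libraries per genotype; limma adjusted p = 0.646) was about the size of its error. FPKM summed over a gene says nothing about the protein made, and the genotype is named here by its label.

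Over all tested genes the median difference was −0.04 in complete and −0.06 in serine/glycine-free medium, and the differences in the 2 media correlated at r = 0.211 across the 16018 genes, which are not independent and share no library between the media. Limma with the medium as a block called 9 genes higher (0.0562% of those tested) and 15 lower (0.0936%) at an adjusted p under 0.05. Only 5 of them are protein-coding, 1 higher and 4 lower, which is 0.00821% and 0.0328% of the 12179. ART5, an ADP-ribosyltransferase, rose, and MYL12A, MYL12B, TGFBI and HBE1 fell. The other 19 are noncoding or had no matching gene type, and 18 of these are listed at 0 in both libraries of 1 genotype, 10 in the KO-labelled and 8 in the wild-type libraries. They include snoRNAs, U6 snRNA copies and a miRNA, such as SNORD70 at 246 and 279 FPKM in the KO-labelled libraries against 0 in wild type, and MIR3687 at 0 against 7201 and 14399 FPKM. No fold is given for them, since a listed 0 can be a failed estimate.

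With 1 library per genotype and medium, the model keeps 1 residual degree of freedom, and its p-values measure how far the 2 media agree within a single experiment, with a spread borrowed from all genes. When the 12179 protein-coding genes were fitted alone, 170 were called higher (1.40%) and 525 lower (4.31%), and the borrowed spread then carried 9.58 prior degrees of freedom, against 3.13 over all genes. Below, "rose" and "fell" are kept for the genes called over all 16018 genes, and passing the protein-coding fit is stated where it applies. Unadjusted p-values were under 0.05 for 884 genes with a higher value (5.52%) and 1658 with a lower value (10.4%), and among protein-coding genes for 5.12% and 10.4%. That split moved to 1115 and 1356 genes with median-ratio scaling, and to 1299 and 1243 with equal sums over protein-coding genes, which shifted the median difference of all genes to 0.01 and 0.03. The excess of lower genes therefore depends on the scaling, and the named groups below are read against the median.

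Protein-coding genes at least 1.5-fold apart in both media numbered 181 higher (1.49%) and 445 lower (3.65%), and at least 2-fold, 26 higher (0.213%) and 96 lower (0.788%). ART5 stood at 26.8 and 27.3 FPKM in the KO-labelled libraries, against 4.43 and 4.39 FPKM in wild type, a difference of 2.37 ± 0.15 (limma adjusted p = 0.0485). The genotypes were far apart, with almost the same level in both media. FAM132A, which encodes a secreted protein of the C1q and TNF related family, had 16.4 and 15.7 FPKM in the KO-labelled libraries, against 2.02 and 1.44 FPKM in wild type (2.65 ± 0.20, adjusted p = 0.0644). LRRC17, a secreted leucine-rich repeat protein, followed the medium within each genotype, at 19.2 and 4.09 FPKM in the KO-labelled libraries, against 2.87 and 0.69 FPKM in wild type. FASN, the fatty acid synthase, was at 64.6 and 38.8 FPKM in the KO-labelled libraries, against 23.2 and 12.5 FPKM in wild type (1.44 in complete and 1.56 in the other medium, adjusted p = 0.0646). RHOB, a small GTPase of the cytoskeleton, was at 89.1 and 44.3 FPKM in the KO-labelled libraries, against 46.0 and 22.3 FPKM in wild type. PTGFR, a prostaglandin receptor, CNN1, a calponin of smooth muscle, CDC42EP5, BPIFB4 and WIPF2 were also higher in both media, with differences of 1.00 to 1.52. Both KO-labelled values lay above both wild-type values in each of these genes except CDC42EP5 and RHOB, which overlapped between genotypes and stood apart within each medium. Among all protein-coding genes 15.6% lay wholly above and 24.4% wholly below. Genes named here and below by p or by the size of their difference would tend to lie apart.

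TGFBI, an extracellular matrix protein that TGF-beta induces, fell to 52.1 and 61.7 FPKM in the KO-labelled libraries, against 200.5 and 210.3 FPKM in wild type (−1.84 ± 0.10, limma adjusted p = 0.0280). HBE1, the embryonic epsilon globin, fell to 0.688 and 0.551 FPKM in the KO-labelled libraries, against 20.9 and 23.9 FPKM in wild type (−3.85 ± 0.21, adjusted p = 0.0306). Its locus string is shared by 34 listed genes, among them AC104389.28, which was lower alongside it (−3.60 ± 0.24, adjusted p = 0.0538). The labels do not say how reads were divided within this globin region. NEGR1, a cell adhesion protein best known from neurons, was at 5.10 and 5.196 FPKM in the KO-labelled libraries, against 19.8 and 19.3 FPKM in wild type (−1.74 ± 0.16, adjusted p = 0.0982). ASRGL1, an asparaginase, was at 2.10 and 2.30 FPKM in the KO-labelled libraries, against 11.3 and 9.61 FPKM in wild type (−1.83 ± 0.21, adjusted p = 0.141). In all 5 of these genes both KO-labelled values lay far below both wild-type values. Leaving out any 1 of the 4 libraries, with no medium block and so with genotype and medium unbalanced, left none of the 5 protein-coding calls over all genes.

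**Figure D1:**
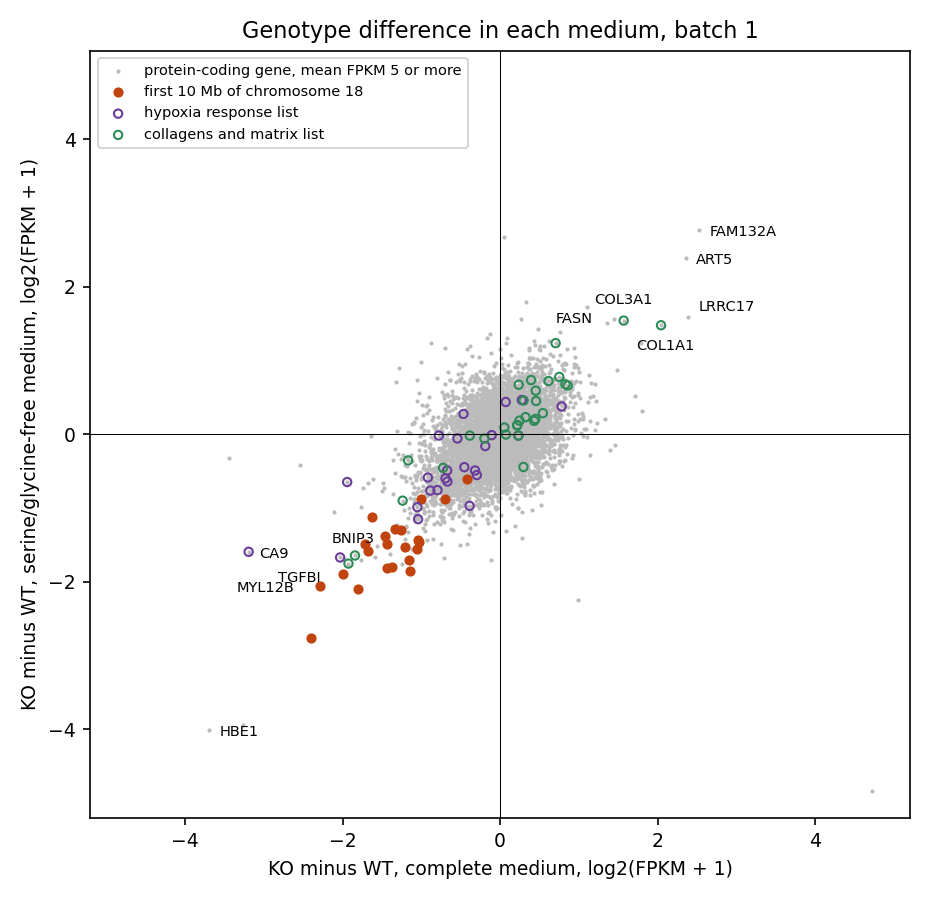
Each point is a protein-coding gene with a mean of 5 FPKM or more, placed by its KO-labelled minus wild-type difference in complete medium (horizontal axis) and in serine/glycine-free medium (vertical axis), both on the log2(FPKM + 1) scale. Genes within the first 10 Mb of chromosome 18 (orange) lie together at the lower left, and ART5 and FAM132A stand at the upper right with differences above 2 in both media.

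Many of the protein-coding genes at least 2-fold lower in both media lay at the start of chromosome 18, the tip of its short arm. All 22 protein-coding genes with a mean of 5 FPKM or more that start within the first 10 Mb (hg19, 158383 to 9960018) were lower in both media, 21 of them by at least 1.5-fold and 19 by at least 2-fold. In all 22 both KO-labelled values lay below both wild-type values, where 24.4% of protein-coding genes did so. Their median difference was −1.36 in complete and −1.51 in serine/glycine-free medium. Summed over the 22 genes, FPKM was 269.7 and 292.0 in the KO-labelled libraries, against 849.9 and 982.8 in wild type, ratios of 0.317 and 0.297. This region was noticed after its values were seen, so no test of the region is given. By single genes, all 22 had an unadjusted p under 0.05, 2 passed over all genes and 20 passed the protein-coding fit. Of all protein-coding genes 10.4% were lower at that p, 0.0328% were called lower over all genes and 4.31% in that fit. These counts use the values by which the region was noticed, and the genes share the same libraries. The counts therefore describe the region and cannot test it. Among the 8839 protein-coding genes at this level, 50 were at least 2-fold lower in both media. Genes of the region make up 19 of these 50, or 38%. Of the 445 tested protein-coding genes at least 1.5-fold lower in both media, only 25 lie in this region, so most lower genes lie elsewhere.

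MYL12B and MYL12A encode regulatory light chains of nonmuscle myosin and lie next to each other. MYL12B (chromosome 18, 3261907 to 3278282) fell to 41.1 and 61.0 FPKM in the KO-labelled libraries, against 203.6 and 256.3 FPKM in wild type (−2.17 ± 0.10, limma adjusted p = 0.0253). MYL12A (3247479 to 3261848) fell to 21.2 and 28.8 FPKM in the KO-labelled libraries, against 87.1 and 109.6 FPKM in wild type (−1.94 ± 0.10, adjusted p = 0.0270). The genes are near-identical in sequence, and the sources used here do not say how reads matching both were assigned.

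NDC80, the kinetochore protein that holds microtubules, was at 9.26 and 9.52 FPKM in the KO-labelled libraries, against 35.0 and 44.1 FPKM in wild type (−1.96 ± 0.14, adjusted p = 0.0631). YES1, a Src family kinase, was at 16.7 and 22.8 FPKM in the KO-labelled libraries, against 57.4 and 65.8 FPKM in wild type (−1.60 ± 0.12, adjusted p = 0.0644). VAPA, which anchors the endoplasmic reticulum at contact sites, was at 31.2 and 39.2 FPKM in the KO-labelled libraries, against 87.8 and 103.9 FPKM in wild type (−1.42 ± 0.10, adjusted p = 0.0538). In all 3 genes the genotypes did not overlap, as in every gene of the region at this level. ENOSF1, a mitochondrial enzyme, and TYMS, the thymidylate synthase of DNA synthesis, overlap in 1 locus string. ENOSF1 had the largest difference of the region, with 1.49 and 1.05 FPKM in the KO-labelled libraries, against 12.2 and 12.9 FPKM in wild type (−2.59 ± 0.22, adjusted p = 0.0893). TYMS was at 13.5 and 10.5 FPKM in the KO-labelled libraries, against 32.3 and 32.2 FPKM in wild type (−1.37 ± 0.15).

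Other members were SMCHD1, which keeps the inactive X chromosome silent (−1.46), TGIF1, a homeobox repressor of TGF-beta signalling (−1.59), NDUFV2, a subunit of respiratory complex I (−1.43), EPB41L3, a membrane skeleton protein (−1.63), the small GTPases RAB12 (−1.25) and RAB31 (−1.37), and TWSG1, a modulator of BMP signals (−1.31). ZBTB14, a zinc finger protein, had the smallest difference, at 5.97 and 5.68 FPKM in the KO-labelled libraries, against 8.32 and 9.19 FPKM in wild type. The lower values did not extend along the whole chromosome. Among the next 16 genes, which start between 10 and 18 Mb, only NAPG reached 1.5-fold in both media, at 6.76 and 5.91 FPKM in the KO-labelled libraries, against 12.9 and 15.1 FPKM in wild type. Their medians were −0.21 and −0.37, and those of the remaining 84 genes of the chromosome, 0 of them at 1.5-fold, were −0.08 and −0.16. Counted in windows of 5 Mb over the genome, the pair at the start of chromosome 18 had the lowest medians of 325, at −1.59 and −1.31. The lowest elsewhere was −0.74 on chromosome 7, and the highest was 0.36 on chromosome 17. Every gene was lower in both media in 3 other windows, with 12 genes at 150 to 155 Mb of chromosome 7, 10 genes at 5 to 10 Mb of chromosome 2 (median −0.68) and 19 genes at 120 to 125 Mb of chromosome 10 (median −0.59), which holds BUB3. In those windows 5, 4 and 5 genes were at least 1.5-fold lower. On chromosome 1 the windows starting at 20000001 and 25000001 had medians of −0.62 and −0.52. There 26 of 29 and 40 of 44 genes were lower in both media, 9 and 11 of them by at least 1.5-fold. Medians between these were found in the windows starting at 70000001 of chromosome 8 (−0.58) and at 230000001 (−0.57) and 220000001 (−0.55) of chromosome 2. In these, 9 of 10, 16 of 18 and 17 of 20 genes were lower in both media, and the list of low windows here is not complete. DNA copy number was not measured here. Over protein-coding genes with a mean of 5 FPKM or more, the difference moved with the GC content of transcripts, with medians of −0.09 and −0.15 in the low-GC group, −0.05 and −0.07 in the middle group and 0.01 and 0.09 in the high-GC group. The 22 genes had a median GC content of 42.6%, and genes of the same GC group elsewhere had medians of −0.09 and −0.15.

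**Figure D2:**
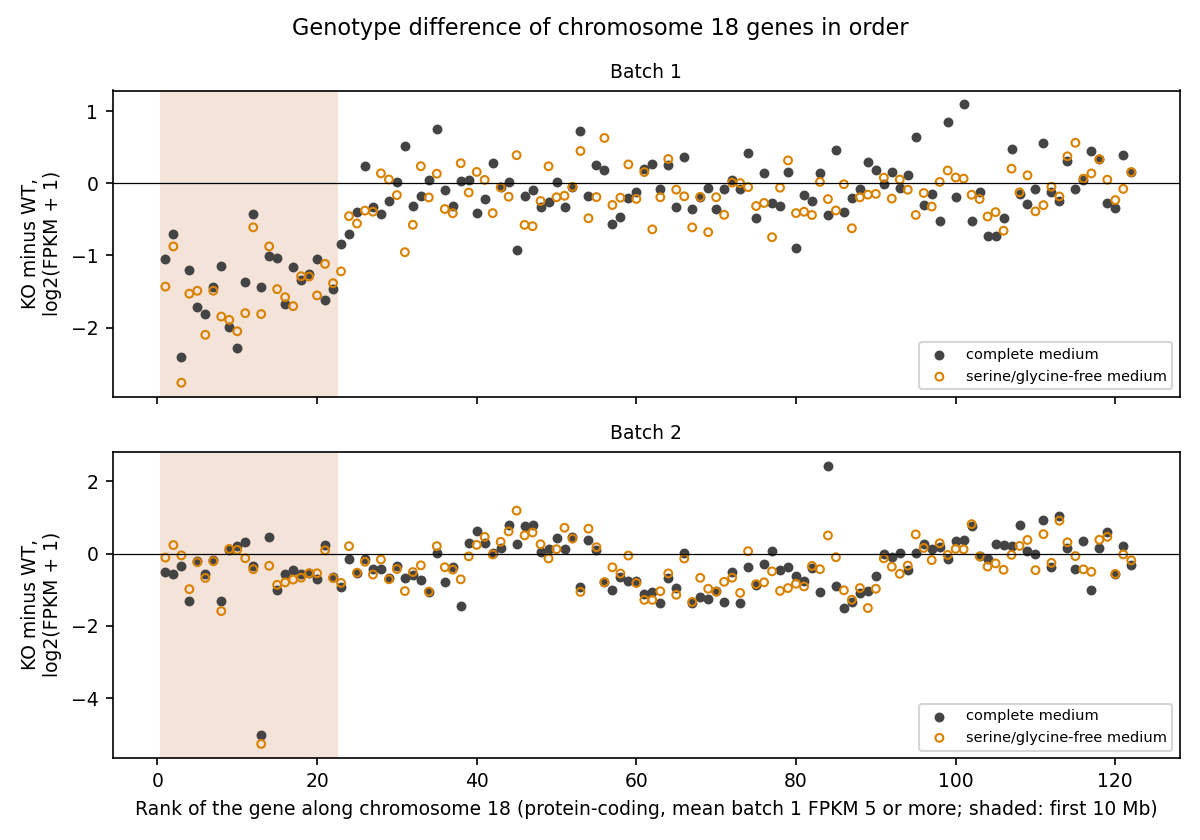
KO-labelled minus wild-type differences on the log2(FPKM + 1) scale of chromosome 18 protein-coding genes, placed by their rank along the chromosome, in batch 1 (top) and batch 2 (bottom), with filled points for complete and open points for serine/glycine-free medium. In batch 1 the 22 shaded genes all lie below 0 in both media and the 84 genes after the next 16 scatter around medians of −0.08 and −0.16, while in batch 2 the shaded genes (medians −0.53 and −0.49) and the next 16 (−0.56 and −0.48) lie at similar levels.

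Promoters of 28 named genes were searched for the elements that ATF3 family proteins are known to bind, since the contrast bears the ATF3 label. The 28 were ATF3, the serine synthesis enzymes, the called protein-coding genes and those with the largest difference shared by both media. Genes named only as list members were not searched. The letters searched were TGACGTCA, the ATF/CRE element, and TGANTCA, the AP-1 element, both of which read the same on the 2 strands and do not overlap each other in the sequences shown. RefSeq promoters (250 bases before to 50 after the start, GRCh38.p14) were found for 18 of these 28 genes, of which 1 held the ATF/CRE letters and 1 the AP-1 letters. Over all 27305 promoters in the table, 1.98% held TGACGTCA and 7.76% held TGANTCA. The genes with a match were NDC80 (chr18:2571307-2571606, plus strand) and CA9 (chr9:35673678-35673977, plus strand), and both are shown. Capitals mark the match.
NDC80: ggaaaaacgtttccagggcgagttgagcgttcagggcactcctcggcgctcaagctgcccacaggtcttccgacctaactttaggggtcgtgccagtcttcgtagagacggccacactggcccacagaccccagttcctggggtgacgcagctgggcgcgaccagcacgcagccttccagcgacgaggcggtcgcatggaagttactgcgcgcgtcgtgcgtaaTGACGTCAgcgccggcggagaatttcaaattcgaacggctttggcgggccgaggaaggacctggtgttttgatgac
CA9: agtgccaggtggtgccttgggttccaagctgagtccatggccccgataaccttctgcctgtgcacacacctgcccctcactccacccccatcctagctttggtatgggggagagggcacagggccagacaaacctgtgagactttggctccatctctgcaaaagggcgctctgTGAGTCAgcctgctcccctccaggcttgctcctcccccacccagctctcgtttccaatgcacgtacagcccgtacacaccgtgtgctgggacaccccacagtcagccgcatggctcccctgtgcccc
ATF3, PHGDH, PSAT1, ART5, MYL12A, MYL12B, TGFBI and BNIP3 held neither run of letters in this window. A match is a description of letters and no evidence of binding, and its absence says only that these letters are not in the window.

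Genes of the hypoxia response were lower as a group in both media. These genes are switched on by HIF transcription factors when oxygen is short and serve glycolysis, pH control, removal of mitochondria and collagen modification. Of 30 tested members 24 were lower in both media (38.0% of protein-coding genes were) and 4 were higher, 12 were at least 1.5-fold lower and none that much higher. The median difference was −0.61 in complete and −0.55 in serine/glycine-free medium. Over all protein-coding genes it was −0.04 and −0.06. Of the members 0 passed over all genes, 18 had a lower and 1 a higher value at an unadjusted p under 0.05, and the protein-coding fit called 11 lower and 1 higher. Of all protein-coding genes 3.65% were at least 1.5-fold lower. At that p 10.4% were lower and 5.12% higher, and that fit called 4.31% lower and 1.40% higher. In the alternatives run the list's median stayed between −0.63 and −0.37.

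BNIP3, a mitochondrial protein that promotes mitophagy, was at 5.88 and 3.89 FPKM in the KO-labelled libraries, against 27.1 and 14.6 FPKM in wild type (−1.85 ± 0.18, limma adjusted p = 0.113). Its relative BNIP3L was at 40.1 and 45.2 FPKM in the KO-labelled libraries, against 70.3 and 77.0 FPKM in wild type. FAM162A, a mitochondrial protein linked to cell death under hypoxia, was at 18.7 and 21.96 FPKM in the KO-labelled libraries, against 39.7 and 44.5 FPKM in wild type (−1.02 ± 0.11). In each of these 3 genes both KO-labelled values lay below both wild-type values, as in 24.4% of protein-coding genes. The carbonic anhydrases of the cell surface, which control pH, were lower with them. CA9, whose promoter is printed above, was at 0.12 and 3.27 FPKM in the KO-labelled libraries, against 9.24 and 11.9 FPKM in wild type (−2.39 ± 0.44, adjusted p = 0.194). CA12 was at 6.54 and 5.30 FPKM in the KO-labelled libraries, against 14.5 and 13.0 FPKM in wild type (−1.10 ± 0.16).

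Among the collagen-modifying members P4HA1, a prolyl hydroxylase, had −0.65 ± 0.11 and PLOD2, a lysyl hydroxylase, −0.75 ± 0.13, and both passed the protein-coding fit. PDK1, which holds pyruvate out of the mitochondria, had −0.82 ± 0.17, and NDRG1 had −0.65 ± 0.10. DDIT4, an inhibitor of mTORC1 that amino acid stress also raises, was at 11.8 and 67.8 FPKM in the KO-labelled libraries, against 48.1 and 107 FPKM in wild type. VEGFA, the vascular growth factor, was at 11.01 and 24.4 FPKM in the KO-labelled libraries, against 13.7 and 36.2 FPKM in wild type (−0.42 ± 0.14, adjusted p = 0.285), with the genotypes overlapping. LOXL2, a lysyl oxidase, went the other way, at 43.1 and 46.0 FPKM in the KO-labelled libraries, against 24.6 and 35.2 FPKM in wild type (0.58 ± 0.14).

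**Figure D3:**
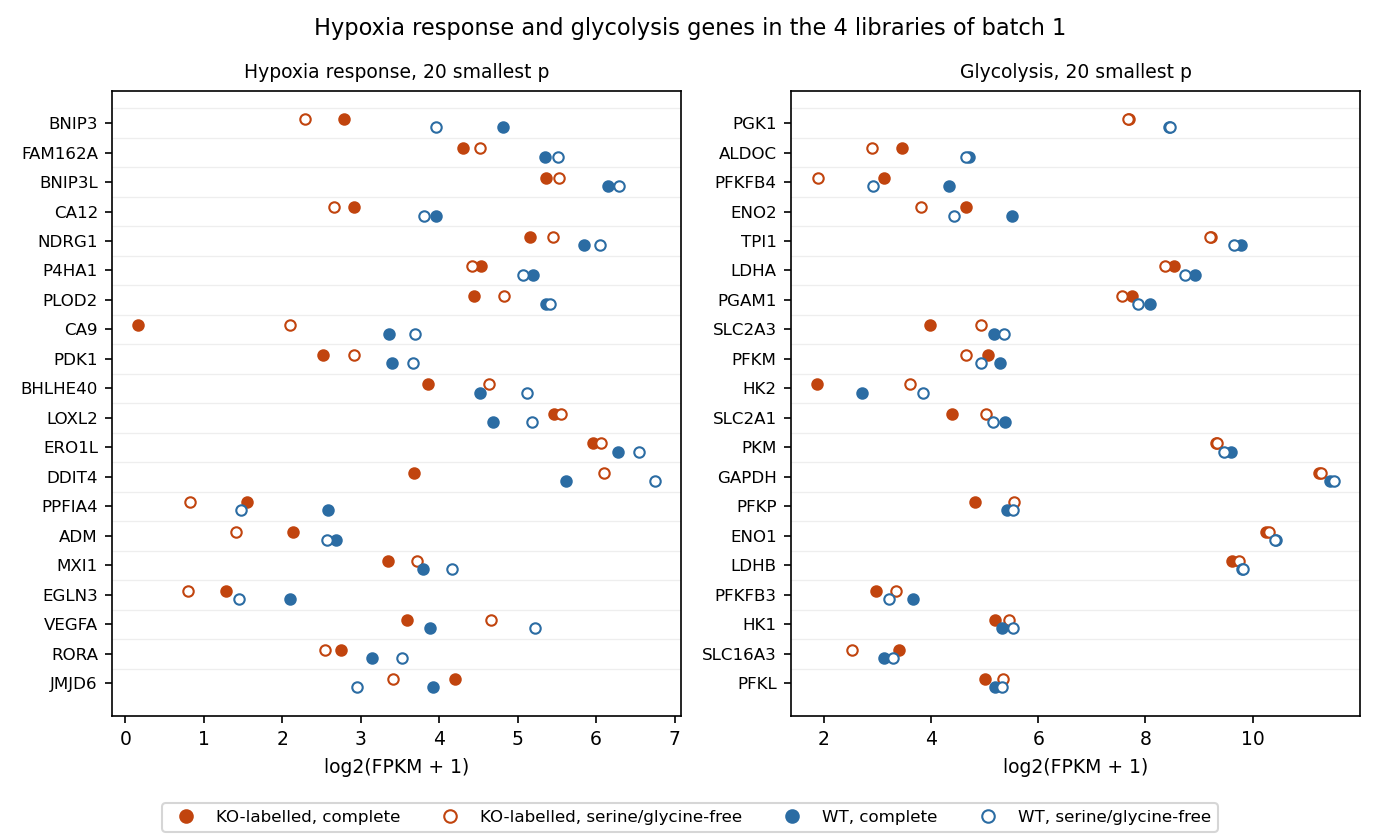
Levels, as log2(FPKM + 1), of the 20 hypoxia response genes (left) and 20 glycolysis genes (right) with the smallest unadjusted p in each of the 4 libraries, KO-labelled above wild type, filled for complete and open for serine/glycine-free medium. From BNIP3 to PDK1 the KO-labelled points lie left of the wild-type points in both media, and LOXL2 and JMJD6 lie the other way.

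Glycolysis genes, several of which are also HIF targets, were lower too, with 17 of 23 lower in both media, 0 higher and 4 at least 1.5-fold lower. The median difference was −0.34 in complete and −0.24 in serine/glycine-free medium, 0 members passed over all genes, 8 had a lower value at an unadjusted p under 0.05, and the same number passed the protein-coding fit. Of all protein-coding genes 38.0% were lower in both media, 3.65% by at least 1.5-fold, 10.4% were lower at that p and 4.31% in that fit. PGK1, phosphoglycerate kinase, was at 206.9 and 202.3 FPKM in the KO-labelled libraries, against 348.0 and 350.7 FPKM in wild type (−0.77 ± 0.08, limma adjusted p = 0.134). TPI1, triosephosphate isomerase, was at 597 and 593 FPKM in the KO-labelled libraries, against 878 and 803 FPKM in wild type. LDHA, which makes lactate, was at 369 and 328 FPKM in the KO-labelled libraries, against 484 and 425 FPKM in wild type. The 3 enzymes differed little between media, and both KO-labelled values lay below both wild-type values, as in 24.4% of protein-coding genes.

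ALDOC, an aldolase isoform, had the largest difference of the list (−1.25 and −1.76 in the 2 media), at 10.05 and 6.43 FPKM in the KO-labelled libraries, against 25.3 and 24.2 FPKM in wild type. PFKFB4, which sets the level of the activator of phosphofructokinase, was at 7.70 and 2.70 FPKM in the KO-labelled libraries, against 19.2 and 6.52 FPKM in wild type. ENO2, the neuronal enolase, had −0.74 ± 0.13, and the glucose transporter SLC2A3 had −0.81 ± 0.22. The abundant housekeeping isoforms differed least: ALDOA had −0.01 ± 0.11, GPI −0.04 ± 0.09 and ENO1 −0.16 ± 0.10, and none of these passed.

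Targets of p53, the tumour suppressor that halts division after damage, were lower as well. Of 25 tested members 16 were lower in both media and 1 was higher, 5 were at least 1.5-fold lower and 0 higher. The medians were −0.47 and −0.49, 13 members had a lower value at an unadjusted p under 0.05, 6 passed the protein-coding fit, and 0 passed over all genes. The shares of all protein-coding genes were 38.0% lower in both media, 3.65% by at least 1.5-fold, 10.4% lower at that p and 4.31% in that fit. RRM2B, the p53-induced subunit of ribonucleotide reductase, was at 18.4 and 17.6 FPKM in the KO-labelled libraries, against 42.6 and 45.8 FPKM in wild type (−1.25 ± 0.12, limma adjusted p = 0.112). CDKN1A, the cell cycle inhibitor p21, was at 47.1 and 75.2 FPKM in the KO-labelled libraries, against 94.0 and 123 FPKM in wild type (−0.84 ± 0.11, adjusted p = 0.147). In both genes the KO-labelled values lay below the wild-type values, as in 24.4% of protein-coding genes, and in CDKN1A serine/glycine-free medium gave the higher value in each genotype.

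SESN2, a stress sensor that ATF4 also drives, was at 2.91 and 12.8 FPKM in the KO-labelled libraries, against 5.57 and 29.1 FPKM in wild type (−0.94 ± 0.19). GADD45A, an inhibitor of the cell cycle after damage, had −0.74 ± 0.14, DDB2, which recognises ultraviolet damage, −0.62 ± 0.13, and CCNG1, cyclin G1, −0.47 ± 0.10. MDM2, the ligase that removes p53, was at 36.4 and 24.6 FPKM in the KO-labelled libraries, against 42.3 and 45.2 FPKM in wild type (−0.53 ± 0.19, adjusted p = 0.308). The cell death genes BAX and BBC3 passed neither fit. BAX had 0.17 ± 0.10 and BBC3 0.03 ± 0.15.

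Collagens and matrix genes split in 2 directions, most of them higher. Of 33 tested members 20 were higher in both media (26.9% of protein-coding genes were) and 8 lower, 7 were at least 1.5-fold higher and 4 lower. Medians were 0.30 in complete and 0.18 in serine/glycine-free medium, and the protein-coding fit called 7 higher and 5 lower, while over all genes only TGFBI, described above, passed. Among all protein-coding genes 38.0% were lower in both media, 1.49% were at least 1.5-fold higher and 3.65% lower. The protein-coding fit called 1.40% of them higher and 4.31% lower. COL3A1 and COL1A1 encode fibrillar collagens. COL3A1 was at 53.7 and 52.5 FPKM in the KO-labelled libraries, against 17.4 and 17.4 FPKM in wild type (1.56 ± 0.11, limma adjusted p = 0.0572). COL1A1 was at 42.7 and 23.3 FPKM in the KO-labelled libraries, against 9.61 and 7.72 FPKM in wild type (1.76 ± 0.19, adjusted p = 0.134). In both collagens the KO-labelled values lay above the wild-type values, as in 15.6% of protein-coding genes.

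COL6A1, a chain of microfibrillar collagen VI, was at 53.5 and 51.3 FPKM in the KO-labelled libraries, against 31.4 and 29.5 FPKM in wild type (0.76 ± 0.10), while its partner chains COL6A2 and COL6A3 had 0.38 ± 0.10 and 0.52 ± 0.12. TNC, tenascin C of remodelling tissue, had 0.75 ± 0.12 and the protease MMP3 0.97 ± 0.17, with MMP3 at 24.9 and 84.9 FPKM in the KO-labelled libraries, against 14.9 and 35.5 FPKM in wild type. The network collagen IV of basement membranes stood apart from the fibrillar collagens, with COL4A1 at −0.20 ± 0.13 and COL4A2 at 0.04 ± 0.09. On the lower side MFAP5, a microfibril protein, was at 2.12 and 2.58 FPKM in the KO-labelled libraries, against 10.2 and 10.2 FPKM in wild type (−1.74 ± 0.20, adjusted p = 0.141). EFEMP1, a fibulin, had −1.07 ± 0.15, FN1, fibronectin, −0.59 ± 0.13 and the protease inhibitor TIMP1 −0.76 ± 0.22. Mesenchymal markers summed to 1209 and 1421 FPKM in the KO-labelled libraries, against 993 and 1034 FPKM in wild type. Of these, VIM alone had 1018 and 1247 FPKM, against 809 and 856 FPKM, and the median difference of the list was 0.02. The lower sum of the retinal pigment epithelium markers came mostly from KRT8 and KRT18, as given above. The part of either list in the matrix result was not tested. In bulk samples fewer cells of a type and less RNA per cell cannot be told apart.

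**Figure D4:**
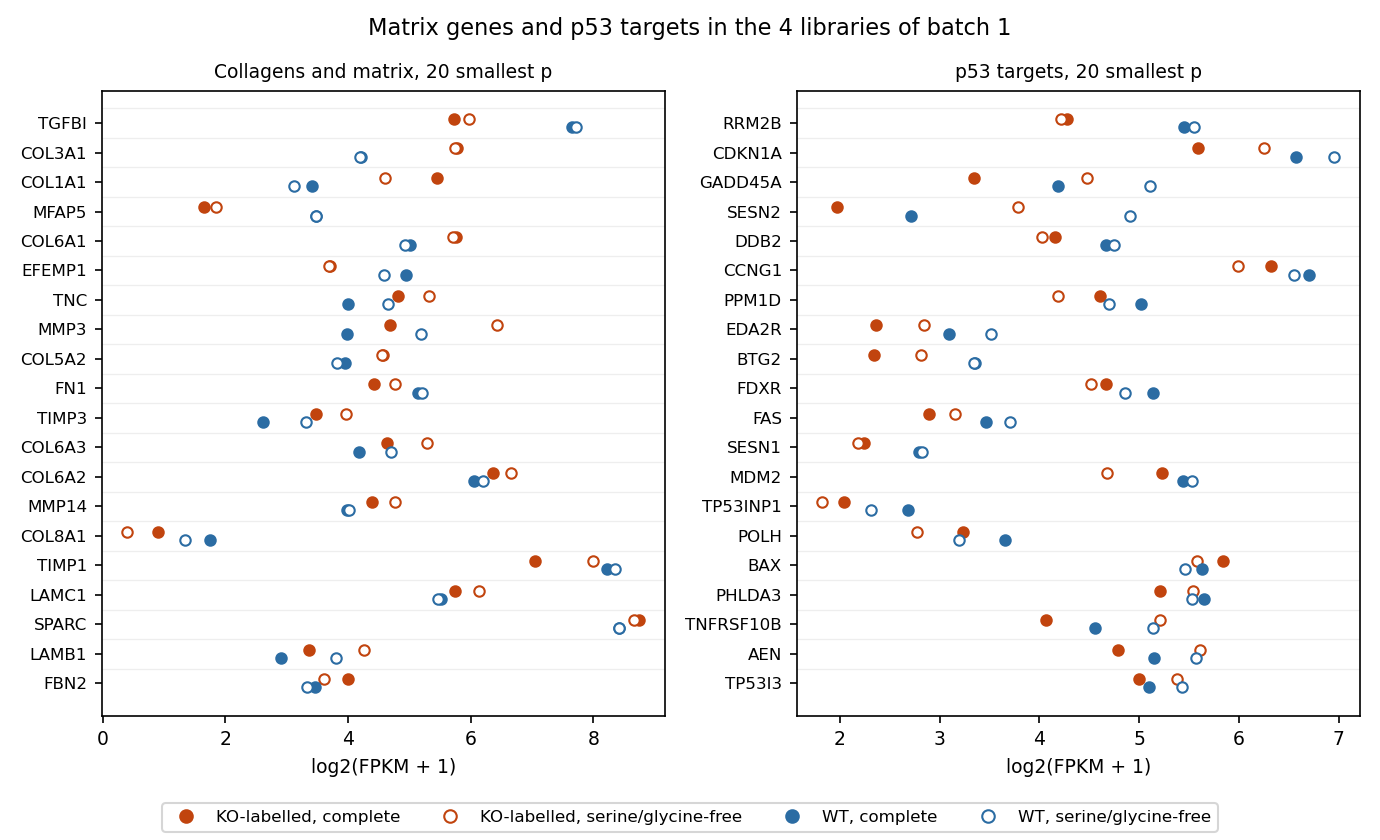
Levels, as log2(FPKM + 1), of the 20 matrix genes (left) and 20 p53 targets (right) with the smallest unadjusted p, KO-labelled above wild type, filled for complete and open for serine/glycine-free medium. COL3A1, COL1A1 and COL6A1 lie to the right in the KO-labelled libraries, TGFBI, MFAP5 and EFEMP1 to the left, and RRM2B and CDKN1A to the left.

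Mitosis genes were lower by small amounts. Of 35 tested members 29 were lower in both media, 1 of them, BUB3, by at least 1.5-fold, and 1 was higher, with medians of −0.17 and −0.32. Over all genes 0 passed, 15 had a lower value at an unadjusted p under 0.05, and 4 passed the protein-coding fit. For all protein-coding genes the shares were 38.0% lower in both media, 3.65% by at least 1.5-fold, 10.4% lower at that p and 4.31% in that fit. BUB3, of the spindle checkpoint, was at 85.1 and 78.3 FPKM in the KO-labelled libraries, against 131 and 123 FPKM in wild type (−0.63 ± 0.09, limma adjusted p = 0.149). CENPA, the centromeric histone, had −0.61 ± 0.10, NEK2 −0.61 ± 0.14 and MAD2L1 −0.45 ± 0.12. The kinases AURKB (−0.01 ± 0.16) and PLK1 (−0.07 ± 0.11) and the motor KIF11 (−0.13 ± 0.12) passed neither fit. The list had a median GC content of 42.5%, on the low side of the 47.7% over all genes, and the part of GC in its result was not tested.

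DNA replication genes went both ways, with 14 of 37 higher and 14 lower in both media, against 26.9% and 38.0% of protein-coding genes. The lower members were thus no more common than over all protein-coding genes. PCNA, the sliding clamp, was at 99.7 and 90.1 FPKM in the KO-labelled libraries, against 159 and 129 FPKM in wild type (−0.59 ± 0.09), and LIG1, the replicative ligase, was at 37.4 and 39.3 FPKM in the KO-labelled libraries, against 23.3 and 24.1 FPKM in wild type (0.67 ± 0.11). Both passed the protein-coding fit. Among nuclear genes of the respiratory chain 26 of 42 were lower in both media and 1, NDUFV2 at the start of chromosome 18, reached 1.5-fold. Of all protein-coding genes 38.0% were lower in both media and 3.65% by at least 1.5-fold. NDUFV2 and COX8A (−0.55 ± 0.09) passed the protein-coding fit. Of 49 cytosolic ribosomal protein genes 35 were lower in both media, with medians of −0.12 and −0.14. RPL7 had −0.66 ± 0.09, RPL37A −0.65 ± 0.11 and RPL11 −0.58 ± 0.09, and 8 were called lower and 1 higher in the protein-coding fit. That fit called 4.31% of protein-coding genes lower and 1.40% higher.

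Mitochondrially encoded genes, subunits of the respiratory chain, leaned higher in complete medium. Their median difference was 0.49 in complete and 0.04 in serine/glycine-free medium, and the protein-coding fit called 5 of 13 higher and 1 lower. It called 1.40% of all protein-coding genes higher and 4.31% lower. MT-ND6, the only coding gene of the light strand, was at 122 and 115 FPKM in the KO-labelled libraries, against 73.2 and 57.6 FPKM in wild type (0.86 ± 0.11, limma adjusted p = 0.143). MT-ND5 had 0.60 ± 0.10 and MT-CYB 0.39 ± 0.10. MT-ND3 went the other way, at 497 and 454 FPKM in the KO-labelled libraries, against 600 and 586 FPKM in wild type. Complex IV subunit MT-CO2 had 0.03 ± 0.10.

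The ATF and CREB family, to which ATF3 belongs, showed no member at 1.5-fold in both media in either direction, and 0 of 19 passed either fit. ATF4, which drives ATF3 under amino acid stress, was at 159 and 288 FPKM in the KO-labelled libraries, against 171 and 300 FPKM in wild type (−0.08 ± 0.08, limma adjusted p = 0.673). DDIT3, the stress factor CHOP, was at 6.44 and 17.6 FPKM in the KO-labelled libraries, against 7.07 and 59.6 FPKM in wild type. Its genotype difference was −0.12 in complete and −1.71 in serine/glycine-free medium, each from 1 pair of libraries. BATF3, which pairs with JUN, was at 10.8 and 18.7 FPKM in the KO-labelled libraries, against 6.80 and 14.3 FPKM in wild type (0.48 ± 0.16, adjusted p = 0.286). AP-1 and immediate early genes had medians of 0.03 in complete and 0.44 in serine/glycine-free medium, with 6 of 13 higher and 3 lower in both (26.9% and 38.0% of protein-coding genes). FOS was at 2.25 and 1.92 FPKM in the KO-labelled libraries, against 4.33 and 3.53 FPKM in wild type (−0.67 ± 0.22, adjusted p = 0.287), and JUN at 29.8 and 45.3 FPKM in the KO-labelled libraries, against 26.8 and 28.1 FPKM in wild type (0.41 ± 0.17). None of the 13 passed either fit.

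The enzymes of serine synthesis had small genotype differences with opposite signs in the 2 media. PHGDH, the first enzyme of the pathway, was at 60.5 and 85.9 FPKM in the KO-labelled libraries, against 53.2 and 90.9 FPKM in wild type (0.05 ± 0.11, limma adjusted p = 0.865). PSAT1, the aminotransferase, was at 19.5 and 52.2 FPKM in the KO-labelled libraries, against 18.6 and 62.9 FPKM in wild type (−0.10 ± 0.13, adjusted p = 0.747). PSPH, the phosphatase, was at 24.8 and 44.6 FPKM in the KO-labelled libraries, against 24.3 and 65.1 FPKM in wild type (−0.25 ± 0.17, adjusted p = 0.529). Each stood slightly above wild type in complete medium, by 0.18, 0.06 and 0.03, and below it in serine/glycine-free medium, by −0.08, −0.26 and −0.54. With 1 library per genotype and medium, the change between media has no replicate within the batch.

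Across the 36 tested genes of the ATF4 amino acid response the median difference was 0.09 in complete and −0.16 in serine/glycine-free medium, with 9 higher and 12 lower in both. These counts were near the shares over protein-coding genes, 26.9% higher and 38.0% lower. Besides SESN2 and DDIT4, SLC38A2, a neutral amino acid transporter, was at 149 and 155 FPKM in the KO-labelled libraries, against 190 and 235 FPKM in wild type (−0.47 ± 0.10), and SLC3A2, the heavy chain of transporters, had −0.34 ± 0.09. PYCR1, of proline synthesis, was at 147 and 180 FPKM in the KO-labelled libraries, against 109 and 140 FPKM in wild type (0.39 ± 0.09). These 3 genes passed the protein-coding fit and not the fit over all genes. Of 20 genes of serine and folate metabolism, SFXN1, a mitochondrial serine carrier, was at 42.0 and 27.8 FPKM in the KO-labelled libraries, against 71.8 and 52.1 FPKM in wild type (−0.82 ± 0.10, adjusted p = 0.143). SFXN1 and TYMS were the members of that list that passed the protein-coding fit. SHMT2 had 0.15 ± 0.09 and MTHFD2 −0.26 ± 0.10. Among the 20 aminoacyl-tRNA synthetases YARS passed that fit (−0.48 ± 0.11), which called 4.31% of protein-coding genes lower and 1.40% higher.

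Lipid genes followed no common direction. Beside FASN, ACLY, which supplies cytosolic acetyl-CoA, was at 97.5 and 77.2 FPKM in the KO-labelled libraries, against 68.4 and 52.1 FPKM in wild type (0.53 ± 0.09), and ACACA, the carboxylase before FASN in the pathway, had 0.48 ± 0.11. INSIG1, which holds back sterol synthesis, was at 20.2 and 6.14 FPKM in the KO-labelled libraries, against 40.1 and 16.7 FPKM in wild type (−1.13 ± 0.16). Cholesterol synthesis genes as a list had 8 of 23 higher and 7 lower in both media, against 26.9% and 38.0% of protein-coding genes. Chaperones of the endoplasmic reticulum were lower in 14 of 21 cases in both media, with XBP1, the regulator of the unfolded protein response, at 28.3 and 60.2 FPKM in the KO-labelled libraries, against 50.7 and 110 FPKM in wild type (−0.84 ± 0.10, limma adjusted p = 0.141). The disulfide isomerases PDIA6 and PDIA4 each had −0.58, and HSPA5, the main chaperone of that compartment, had 0.33 ± 0.15.

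Interferon-stimulated genes were lower in both media in 16 of 32 cases and higher in 4 (38.0% and 26.9% of protein-coding genes). Of them 1 passed the protein-coding fit, which called 4.31% of protein-coding genes lower and 1.40% higher. IFI6 was at 14.8 and 14.98 FPKM in the KO-labelled libraries, against 35.2 and 36.9 FPKM in wild type (−1.22 ± 0.12, limma adjusted p = 0.113). ISG15, a ubiquitin-like protein, had −0.02 ± 0.14. Among 17 NF-kappaB and cytokine genes, LIF, a cytokine, was at 10.6 and 23.1 FPKM in the KO-labelled libraries, against 5.44 and 9.78 FPKM in wild type (1.00 ± 0.17), and SOD2, the mitochondrial superoxide dismutase, had −0.48 ± 0.11. The TGF-beta and YAP targets ID2 and ID3, inhibitors of differentiation, had −0.82 ± 0.17 and −0.72 ± 0.16, while CYR61 had 0.49 ± 0.12. Of the 22 antioxidant genes of the NRF2 list none passed either fit.

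**Figure D5:**
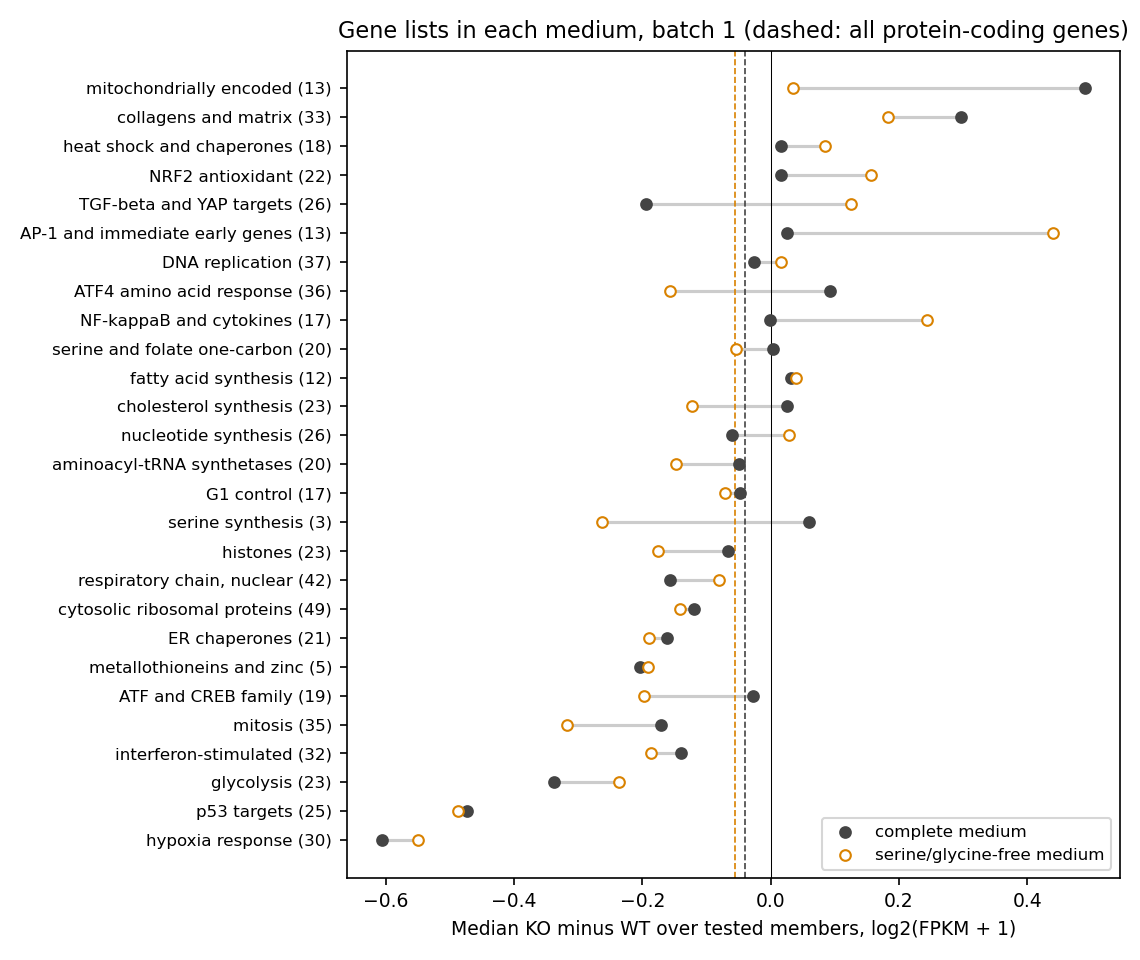
Median KO-labelled minus wild-type difference, on the log2(FPKM + 1) scale, of each gene list in complete (filled) and serine/glycine-free medium (open), with the number of tested members in brackets and the medians of all protein-coding genes dashed. Hypoxia response and p53 target lists lie lowest in both media, and mitochondrially encoded genes are highest in complete medium at 0.49 and close to 0 in serine/glycine-free medium at 0.04.

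Among genes with a mean of 5 FPKM or more, large gaps between the differences of the 2 media, each from 1 pair of libraries, were seen in the following genes. MMP7, a matrix protease, was at 2.10 and 16.01 FPKM in the KO-labelled libraries, against 17.0 and 21.6 FPKM in wild type, and ESM1, a secreted proteoglycan, was at 0.095 and 16.6 FPKM in the KO-labelled libraries, against 1.02 and 6.45 FPKM in wild type. LUZP6 was listed at 25.5 and 0 FPKM in the KO-labelled libraries, against 0 and 27.7 FPKM in wild type, in a locus string shared by 5 listed genes. Its 0 in 1 library of each genotype is a listed value and may be a failed estimate. None of these genes passed over all genes.

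Batch 2 repeated the design in cells labelled as the same line, and a fit over all 8 libraries tested whether the genotype difference was the same there. Wild-type levels of some genes were far apart between the batches. In batch 1 and batch 2 THY1 had 66.0 and 42.8 against 0 and 0.298 FPKM, CCND2 66.6 and 89.5 against 0.141 and 0.0612 FPKM, and IL8 0.475 and 2.89 against 191 and 1355 FPKM. Others were alike, such as CDK1 (131 and 115 against 137 and 143 FPKM). These genes were picked after their values were seen, and the wild types were not tested against each other. Of 17607 genes, 233 had a higher (1.32%) and 457 a lower (2.60%) difference in batch 1 at an adjusted p under 0.05. At the start of chromosome 18, 16 of the 22 genes (72.7%) were lower in both media in batch 2, with medians of −0.53 and −0.49. The next 16 genes were as low there, with 14 lower in both media and medians of −0.56 and −0.48. Of the other 84 genes 44 were lower (52.4%), and so were 43% of all protein-coding genes with a mean of 5 FPKM or more. The difference between batches was called for 9 of the 22. MYL12B had −2.17 in batch 1 and 0.16 in batch 2 (difference −2.32 ± 0.13, limma adjusted p = 0.0117), and MYL12A −1.94 and 0.11 (−2.05 ± 0.11, adjusted p = 0.0110). EPB41L3 had −1.63 in batch 1 and −5.14 in batch 2 (3.51 ± 0.21, adjusted p = 0.0133).

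ATF3 had a difference of −0.24 in batch 1 and 1.92 in batch 2, where it stood at 20.8 and 57.3 FPKM in the KO-labelled libraries, against 3.65 and 18.01 FPKM in wild type (difference between batches −2.16 ± 0.31, limma adjusted p = 0.0444). ART5, near 0 in every batch 2 library, had 2.37 and 0.10 (2.27 ± 0.25, adjusted p = 0.0303). CDKN1A had −0.84 and 1.77, COL6A1 0.76 and −1.06, IFI6 −1.22 and 2.29, NDRG1 −0.65 and 1.48, and CA9 −2.39 and 5.31. These 5 genes were picked after their values were seen, among those called for a difference between batches and with opposite signs. Their calls are therefore no further support. Over all 17607 genes 1.32% had a higher and 2.60% a lower difference in batch 1. TGFBI, at −1.84 in batch 1, was not called (difference between batches −1.43, limma adjusted p = 0.055). The test asks whether the 2 differences are unequal and does not test their signs. The hypoxia list had medians of −0.09 and −0.13 in batch 2 and the p53 list 0.26 and 0, while glycolysis (−0.31 and −0.42) and mitosis (−0.34 and −0.55) were lower there as in batch 1. Among the genes with the smallest p for the difference, it was higher in batch 1 for IGFBP4 (3.21 ± 0.17), VIM and COL6A3 and lower for ASS1 (−4.90 ± 0.15), AP1M2, LCN2 and CAMK2N1. In batch 1 alone the difference was 0.24 for IGFBP4, 0.44 for VIM, 0.52 for COL6A3, 0.01 for ASS1, −0.08 for AP1M2, 0.14 for LCN2 and −1.01 for CAMK2N1. With any 1 of the 8 libraries left out, 0 genes passed this test.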

How the data were processed

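RNA from hTERT-RPE1 cells was sequenced in 8 libraries, of which the 4 of batch 1 carry the genotype contrast. The deposited values are FPKM per gene, 1 table per batch, and the submitters' processing notes name TopHat, Cufflinks, Cuffdiff and hg19, without tool versions. FPKM is relative to each library's total, so the large share of small noncoding RNAs bears on every other gene, and genes in overlapping loci share a locus string (33180 genes). Genes with an FPKM of 1 or more in at least 2 of the 4 libraries were tested on log2(FPKM + 1) with limma 3.58.1 in R 4.3.3, with genotype and medium as terms, a trended prior and Benjamini-Hochberg adjustment over all 16018 genes. A fold on this scale understates the change of low genes. Scripts were tested on simulated data. The genotype-by-batch test used all 8 libraries with a block for each batch and medium. Ensembl IDs gave the gene types (GENCODE, 96.4% matched). Nothing says that libraries were replicate cultures beyond their labels. Each batch holds 1 library per genotype and medium. The p-values therefore measure how far the media agree within a batch, with a spread borrowed from all genes.

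Named by rule were ATF3 and the serine synthesis enzymes, up to 12 called protein-coding genes per direction, up to 12 per direction with the largest difference shared by both media at a mean of 5 FPKM or more, up to 5 per list by smallest p, and up to 5 per direction by the gap between media and by the batch difference. Other list members and the genes of chromosome 18 were named after their values were seen, and some genes the rule names are not reported here. The contrast, the members and the lists were chosen with earlier results of these data known. Alternatives covered the pseudocount, filter, scaling, prior, gene type, block and each library left out.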

Additional observations from a re-analysis of the deposited data

Results flagged for a closer look

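Of 199 genes named by the rule or lying at the start of chromosome 18, 43 had a genotype difference that differed between the batches (limma over all 8 libraries, adjusted p under 0.05). Of these 43, 9 were named for their batch difference, so the count is no measure of how common such differences are. Over all 17607 genes 1.32% had a higher and 2.60% a lower difference in batch 1. Values below are the batch 1 difference minus the batch 2 difference on the log2(FPKM + 1) scale. At the start of chromosome 18 they were MYL12B −2.32, MYL12A −2.05, ENOSF1 −2.39, NDC80 −1.33, YES1 −1.38, SMCHD1 −1.26, TGIF1 −1.68, VAPA −0.75 and EPB41L3 3.51. The genes with a higher difference in batch 1, matrix, mesenchymal and secreted proteins among them, were COL6A3 3.50, IGFBP4 3.21, VIM 2.92, NEFL 2.57, ART5 2.27 and LIF 2.21. Smaller values of the same sign belonged to COL6A1 1.82, ZEB1 1.78, COL3A1 1.65, CDH2 1.59, ACLY 0.91 and ATP5A1 0.77. The genes with a lower difference in batch 1, which include the carbonic anhydrase CA9 and the interferon-stimulated IFI6, began with CA9 −7.70, LCN2 −6.86, CAMK2N1 −5.26, ASS1 −4.90, AP1M2 −4.89, AC104389.28 −3.95 and HBE1 −3.85. Next came IFI6 −3.51, OCLN −2.95, CDKN1A −2.62, KRT8 −2.49, FOS −2.37, ATF3 −2.16 and KRT18 −2.14. Then came NDRG1 −2.13, MFAP5 −1.89, TNFAIP2 −1.78, AHSA1 −1.58, INSIG1 −1.47, BNIP3 −1.41, RPL7 −1.07 and RPL37A −0.92. For HBE1 the batch 2 difference was 0 in both media, so its value is the batch 1 difference alone. Batch 1 and batch 2 were separate experiments whose wild-type levels also differed in some genes, as given above. Whether the KO-labelled cells of both came from 1 clone is not given by the labels.

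The 3 enzymes of serine synthesis had opposite signs in the 2 media of batch 1. The difference in serine/glycine-free medium minus that in complete medium was −0.26 for PHGDH, −0.32 for PSAT1 and −0.57 for PSPH, on the log2(FPKM + 1) scale. With 1 library per genotype and medium these gaps were not tested.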

How the results depend on the processing

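The count of calls changed with the filter, the gene types fitted, the scaling and the prior. Against 9 higher and 15 lower genes, a minimum of 1 FPKM in all 4 libraries gave 60 and 252, a minimum of 5 FPKM in at least 2 gave 13 and 34, and no filter gave 0 and 0 (1007 and 1703 at an unadjusted p under 0.05). Protein-coding genes alone gave 170 and 525, and, chosen after seeing the data, 162 and 486 without the start of chromosome 18, 93 and 197 with median-ratio scaling, and 319 and 395 with equal sums. A constant prior gave 6 and 3. Spread taken from all 8 libraries with a replicate block by medium gave 10 and 37. Leaving out 1 library, with no medium block, gave 1 to 7 higher and 1 to 12 lower genes. The genotype-by-batch test, 233 and 457 genes, gave 106 and 183 with a pseudocount of 0.1, 386 and 632 with a minimum of 5 FPKM, 122 and 327 with a constant prior, 728 and 1150 over protein-coding genes, and 0 and 0 with no filter or without any 1 library. Differences that changed sign with 1 library left out and no medium block were ATF3 (0.13 without wild type in serine/glycine-free medium), PHGDH (−0.20 without KO-labelled in serine/glycine-free medium, −0.33 without wild type in complete medium), PSAT1 (0.59 without KO-labelled in complete medium, 0.75 without wild type in serine/glycine-free medium) and PSPH (0.16 and 0.44 in the same order). Leaving out 1 library without the medium block leaves genotype and medium unbalanced, so these values include the change between media and do not bear on the genotype difference. Medians of the hypoxia, glycolysis, p53, mitosis and matrix lists kept their sign in every scaling, filter and pseudocount run, and those of the AP-1, ATF4, folate and cholesterol lists did not. The median at the start of chromosome 18 ran from −1.60 to −1.12. Depth is unknown, and with 1 library per genotype and medium the p-values cannot separate genotype from differences between single cultures.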
